A study of Danio rerio with 13 samples.

Results

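The livers of zebrafish with 1 mutant copy of tert, the gene of the catalytic subunit of telomerase, were compared with the livers of tert+/+ fish in libraries that held little RNA from the gut. Of the 13 liver libraries, 8 entered the comparison, 4 from tert+/- and 4 from tert+/+ fish, and they were selected on a measured value: apoea (ENSDARG00000102004), an apolipoprotein gene expressed in the intestine, had to lie below 100 CPM (a counts-per-million value, scaled to the library's total). The kept livers reached at most 2.15 CPM of apoea, and the lowest of the left-out livers, of which there were 3, had 11863 CPM. All fish were males of the AB strain, aged 3 months, and each liver carried its own fish number, so each was taken as a separate animal. The tert+/+ fish were AB wildtype. The tert+/- and tert-/- fish came from the tert hu3430 line, which carries a nonsense allele of tert in every cell, and no source used here says whether the genotypes were siblings. The left-out livers were tert+/+ liver 5, tert+/- liver 3 and tert-/- liver 1, and the remaining tert-/- livers, 2 and 3, enter only as values set beside the comparison. Their fold changes use the same 4 tert+/+ livers as reference, so a shared direction is no separate support.

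Telomerase adds repeats to chromosome ends and is made of a reverse transcriptase, encoded by tert, and an RNA template. Zebrafish lose telomere length with age, and fish without tert show tissue decline early in life, first in tissues that divide often, such as the gut and the testis. The liver divides little at rest and carries out much of the synthesis of lipoproteins, bile acids, plasma proteins and sterols.

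The kept libraries held 17801374 to 37309651 counts, with medians of 25169528.5 in tert+/+ and 23967944 in tert+/-. Hepatocyte markers took 10.6% to 26.8% of counts in tert+/+ and 24.7% to 29.0% in tert+/- livers. The 10.6% was that of tert+/+ liver 4, and the other tert+/+ livers had 20.5% to 26.8%. None of the 25 marker genes was at 0 over all 4 livers of a genotype, and 24 had enough counts to be tested. Each genotype had 1 liver with transcripts of heart muscle, tert+/+ liver 1 and tert+/- liver 5, with at least 3039 CPM of MYH7 (ENSDARG00000079782), a cardiac myosin heavy chain, against at most 1.95 CPM in the other 6. On the first principal component, with 32.2% of the variance, the same 2 livers stood at -85.4 and -75.6 against 5.0 to 48.6. No component of the first 3 separated the genotypes. Another library that stood apart, tert+/+ liver 4, had 54.7% of its counts on the 13 mitochondrially encoded genes of the respiratory chain. The other 7 had 8.02% to 14.4%. Marker shares are taken over all counts, those of the mitochondrially encoded genes included. The left-out tert+/- liver 3 and tert+/+ liver 5 also differed from each other. Mitochondrially encoded genes took 40.3% and 15.3% of their counts, and apoea was at 11870 and 18930 CPM. Tert+/+ liver 4 had the lowest tert+/+ shares of hepatocyte, red blood cell and exocrine pancreas markers. Values without the livers that stand apart are given for the lists and genes that rest on them.

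No gene passed the main test. With edgeR's quasi-likelihood test over the 13877 of 32105 genes with enough counts, 0 genes (0%) had a Benjamini-Hochberg adjusted p under 0.05, and the lowest adjusted p was 0.9999. Before adjustment, 180 genes (1.3%) were higher in tert+/- and 210 (1.51%) were lower at a p under 0.05, 390 in all. This was a smaller share than the 0.05 that such a threshold admits where no gene differs. The median standard error of a log2 fold change was 0.368, and the counts varied widely between livers of 1 genotype, with a common dispersion of 0.252. Limma voom also called 0 genes, whereas DESeq2 called 14 (0.101%), of which 11 were higher and 3 were lower in tert+/-. With an indicator for the heart-marked livers added, DESeq2 called 50 of 13877 genes, and these held all of the 14. Without those livers it called 85 of 13655, which held 11 of the 14. These fits share livers with the first, so the overlap is no separate support for the 14. The 50 also held genes of other tissues, among them the pancreatic enzyme genes ctrb.1, ela3l and amy2a and the red blood cell genes hbaa2 and SLC4A1. DESeq2's count ranged from 4 of 13804 genes, without tert+/- liver 4, to 81 of 13877, without tert+/+ liver 1. These settings of DESeq2, the fits without single livers included, were chosen after seeing the data. All 4 tert+/- livers lay above all 4 tert+/+ livers for 91 genes (0.656%) and below them for 145 (1.04%). Over all genes tested, 43.2% had a positive log2 fold change, and the median was -0.05. Without the heart-marked livers, 6557 of 13655 genes had a positive one. Between the left-out tert+/- liver 3 and tert+/+ liver 5, 49% of the tested genes were higher in tert+/-, with a median log2 ratio of -0.015.

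**Figure D1:**
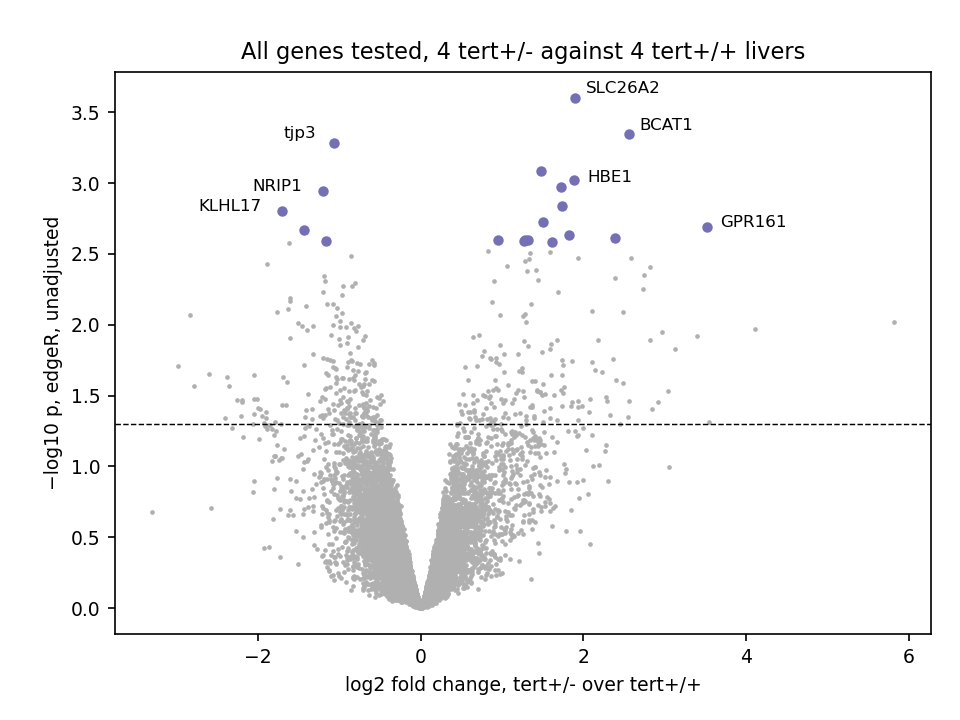
Log2 fold change of tert+/- over tert+/+ livers (x axis) against −log10 of the unadjusted p from edgeR's fit (y axis), 1 point per gene tested, with the 20 genes of smallest p among those whose mean log2 CPM reached 0 in purple and a dashed line at the unadjusted threshold of 0.05. SLC26A2 is the topmost gene, at a log2 fold change of 1.90, and no gene passed the adjusted threshold.

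TERT itself (ENSDARG00000042637) was counted at 2.05, 0.452, 0.633 and 2.34 CPM, normalised for library composition by TMM, in tert+/+ livers 1 to 4, and at 3.11, 2.49, 3.28 and 2.57 CPM in tert+/- livers 1, 2, 4 and 5. The lowest tert+/- liver was thus above the highest tert+/+ liver, although the log2 fold change of 1.1 (SE 0.53) had an edgeR p of 0.0646 before adjustment and 0.9999 after. Counts summed over the whole gene do not read the mutated base, and the genotype labels cannot be checked by them. The order was not the same in the left-out pair, in which tert+/- liver 3 stood at a log2 ratio of -0.22 to tert+/+ liver 5, and tert-/- livers had a log2 fold change of 1.81 over the same tert+/+ livers.

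The 20 genes with the smallest p are described next as the leading candidates of the comparison, 15 of them higher and 5 lower in tert+/-. None passed edgeR's adjusted threshold, and 12 of the 20 were called by DESeq2. Unadjusted edgeR p-values ran from 0.000249 to 0.00262, and all 20 genes had livers that did not overlap between the genotypes, which genes of small p tend to do. Since the groups do not overlap, the sign within any part of these 8 livers was fixed by the choice of genes. A small spread within each genotype beside the difference was likewise favoured by that choice. The tert-/- fold changes share the tert+/+ livers of that choice. They had the same sign for 18 of the 20 genes, which is therefore no separate support. In the left-out pair, which played no part in the choice, 10 of the 20 had the same sign, and si:ch211-285j16.4, HBE1, prodha, nt5c2l1, CDA, TPRG1, ENSDARG00000086708, tjp3, TRAF4 and gcna had the opposite one.

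**Figure D2:**
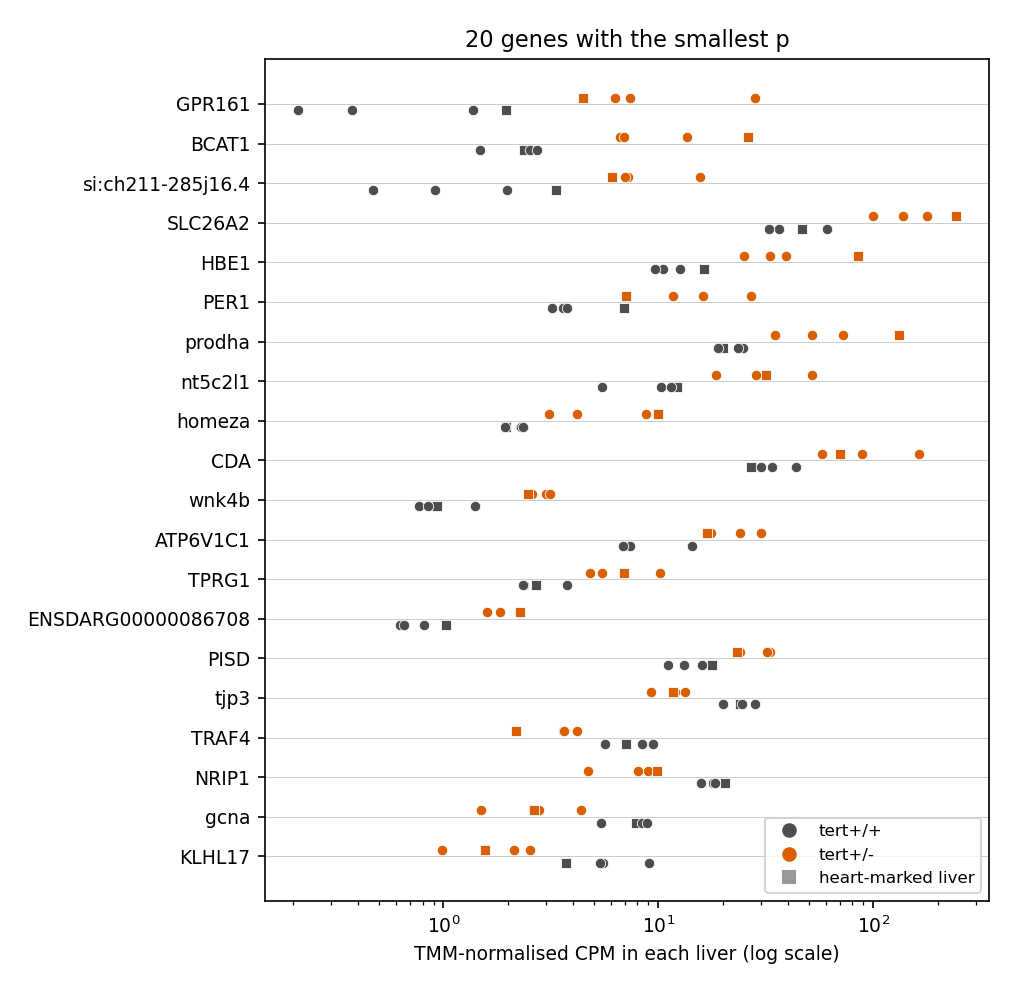
TMM-normalised CPM (x axis, log scale) of the 20 genes with the smallest p in each of the 8 livers, 1 point per liver, tert+/+ in grey and tert+/- in orange, with squares for the heart-marked livers. The groups do not overlap for any of the 20 genes, and PER1 (ENSDARG00000056885) has the narrowest gap, 6.96 against 7.08 CPM in the heart-marked livers.

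Several of the genes that stood higher in tert+/- code for enzymes and carriers of small molecules. SLC26A2 (ENSDARG00000011618), a sulfate carrier of the plasma membrane, had 46.6, 36.6, 32.7 and 60.7 CPM in tert+/+ livers 1 to 4 and 100, 138, 178 and 244 CPM in tert+/- livers 1, 2, 4 and 5. Every tert+/- liver was well above the highest tert+/+ liver, with a log2 fold change of 1.90 (SE 0.33). The edgeR adjusted p was 0.9999 and the DESeq2 adjusted p 0.00101. In the left-out pair the log2 ratio of SLC26A2 was only 0.22. BCAT1 (ENSDARG00000045568), the cytosolic aminotransferase of branched-chain amino acids, was at 2.38, 1.48, 2.53 and 2.72 CPM in tert+/+ and at 6.62, 13.6, 6.92 and 26.2 CPM in tert+/-. Its log2 fold change was 2.56 (SE 0.48, DESeq2 adjusted p = 0.00114), the left-out pair had a log2 ratio of 1.25, and only BCAT1 and SLC26A2 among the 14 genes were called by DESeq2 in all 8 fits that left out 1 liver. Those fits share livers with the first, so this is no separate support. EdgeR called neither gene in its own fits without single livers.

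Prodha (ENSDARG00000086746), a mitochondrial proline dehydrogenase, was at 19.9, 24.9, 23.6 and 19 CPM in tert+/+ and 34.8, 52.1, 72.3 and 132 CPM in tert+/-, with the highest value in the heart-marked liver. The log2 fold change was 1.74 (SE 0.39), and it was 1.26 without the heart-marked livers. CDA (ENSDARG00000038199), a cytidine deaminase of pyrimidine salvage, ranged from 26.9 to 43.7 CPM in tert+/+ and from 57.5 to 163 CPM in tert+/-, a log2 fold change of 1.5 (SE 0.35), but the left-out pair had a log2 ratio of -2.22. PISD, which decarboxylates phosphatidylserine to phosphatidylethanolamine in mitochondria, had the smallest difference of the genes that stood higher, with 11.1 to 17.8 against 23.2 to 33.2 CPM and a log2 fold change of 0.95 (SE 0.23). Its left-out pair had a log2 ratio of 1.33. ATP6V1C1, a subunit of the proton pump of lysosomes, lay at 6.86 to 14.3 CPM in tert+/+ and 16.8 to 30.0 CPM in tert+/-, a log2 fold change of 1.32 (SE 0.32).

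Genes of signalling and of ion balance were in the same group. GPR161 (ENSDARG00000055659), a G protein-coupled receptor that holds back Hedgehog signalling in the primary cilium, was at 1.96, 1.38, 0.211 and 0.375 CPM in tert+/+ and at 6.27, 7.37, 28.2 and 4.47 CPM in tert+/-. This was the largest log2 fold change of the 20, at 3.52 (SE 0.83), and it was smaller in the heart-marked pair, at 1.16, than in the other 6 livers, at 4.27. The left-out pair had a log2 ratio of only 0.46. Set beside these, the tert-/- livers had a log2 fold change of 4.43 over the same tert+/+ livers. The kinase gene wnk4b (ENSDARG00000088967), of a family that regulates salt cotransporters, was at 0.773 to 1.41 CPM in tert+/+ and 2.47 to 3.13 CPM in tert+/-, with little spread within either genotype. Its log2 fold change was 1.48 (SE 0.30), with 1.6 in the left-out pair and -0.42 in tert-/- over tert+/+. The homeobox gene homeza had 1.93 to 2.34 CPM in tert+/+ and 3.11 to 10 CPM in tert+/-, and TPRG1, si:ch211-285j16.4 and ENSDARG00000086708 also stood higher, by 1.29, 2.39 and 1.27 on the log2 scale.

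The 5 genes that stood lower in tert+/- had log2 fold changes between -1.07 and -1.71. The tight junction gene tjp3 (ENSDARG00000002909) was at 23.9, 24.6, 28.3 and 19.9 CPM in tert+/+ and at 11.9, 9.29, 13.3 and 11.7 CPM in tert+/-. The spread within each genotype was small beside the difference, with a log2 fold change of -1.07 (SE 0.21) and a DESeq2 adjusted p of 0.0103. The left-out pair was at 0.26, and tert-/- livers were at 0.09 over the same tert+/+ livers. NRIP1 (ENSDARG00000068965), a corepressor of nuclear receptors, had 20.5, 18, 18.4 and 15.8 CPM in tert+/+ and 8.93, 4.69, 8.06 and 9.86 CPM in tert+/-, a log2 fold change of -1.21 (SE 0.26). Tert-/- livers were at -1.33 over the same tert+/+ livers, and the left-out pair was at -0.02. KLHL17, a kelch family gene (-1.71, SE 0.39), gcna, a gene first known from germ cells (-1.44, SE 0.34), and TRAF4, an adaptor of receptor signalling (-1.17, SE 0.29), made up the rest. Of these 3, only KLHL17 kept its sign in the left-out pair, with a log2 ratio of -0.59.

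**Figure D3:**
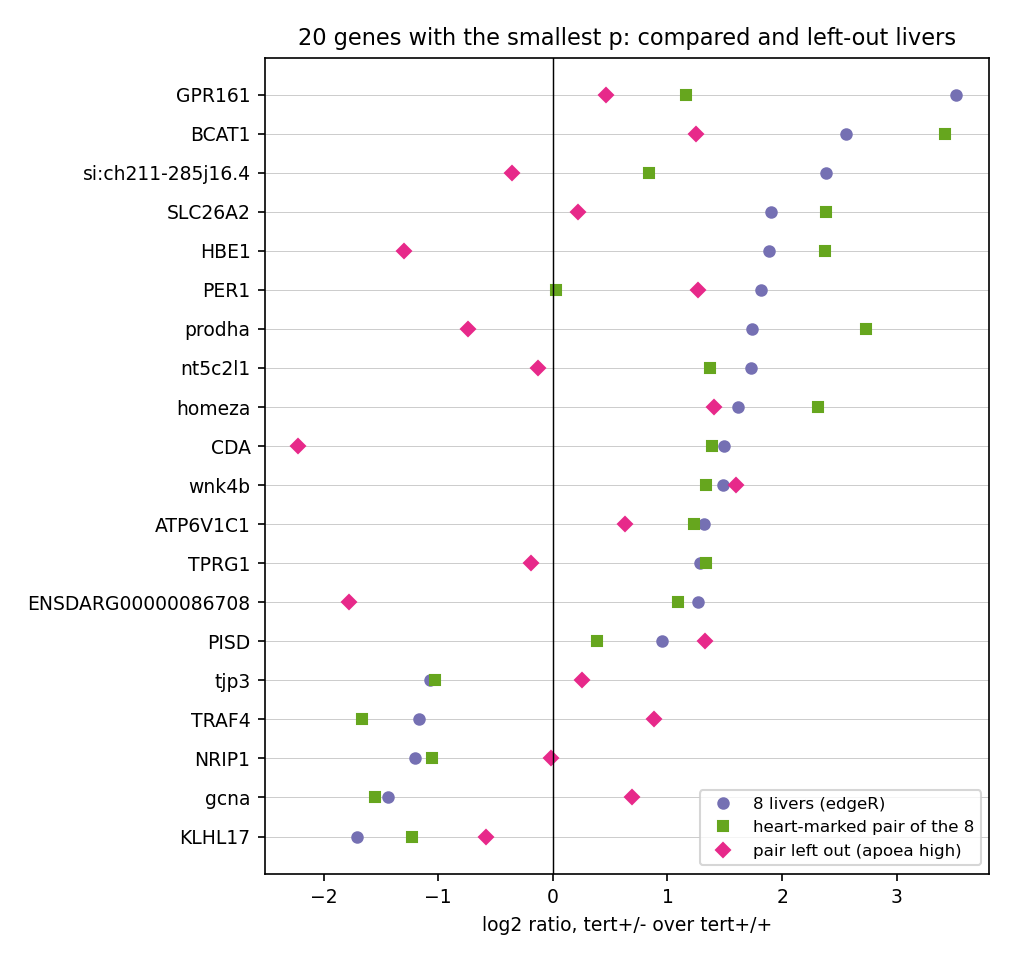
Log2 ratio of tert+/- over tert+/+ (x axis) for the 20 genes with the smallest p in the 8 livers compared (purple circles), in the heart-marked pair among them (green squares) and in the pair left out for high apoea (pink diamonds, 1 liver each). The side of the squares was fixed by the choice of genes with groups that do not overlap, and 10 of the 20 diamonds, from livers outside the choice, lie on the side of their circle.

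FN1 and loxl2a were called by DESeq2 outside the 20 genes and are named here because of that call, after their values were seen. FN1 (ENSDARG00000019815), which codes for the matrix protein fibronectin, was at 2.1, 0.753, 0.703 and 0.0937 CPM in tert+/+ and at 6.71, 8.35, 1.84 and 9.54 CPM in tert+/-. The genotypes overlapped, and the DESeq2 adjusted p was 0.0297. Its log2 fold change was 2.82, against a log2 ratio of 0.2 in the left-out pair. Loxl2a (ENSDARG00000044010), of the lysyl oxidase family that cross-links collagen, had 2.43 to 20.8 CPM in tert+/+ and 18.9 to 143 CPM in tert+/-, again with overlap. Its log2 fold change was 2.74, against 0.36 in the left-out pair. ABCA12, a lipid transporter, was the single gene that edgeR called when tert+/+ liver 2 was left out (adjusted p = 0.0233). It had 0.0467, 1.71, 0.0352 and 0 CPM in tert+/+ and 5.38, 3.33, 6.92 and 5.71 CPM in tert+/-. In the left-out pair its log2 ratio was 3.48.

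Cholesterol synthesis was the gene list with the most even direction among those of liver metabolism. Of its 23 tested genes, 22 stood higher and 1 lower in tert+/-. Their median log2 fold change was 1.32, beside -0.05 over all genes, and 0 passed edgeR's adjusted threshold. Without adjustment, 9 of the 23 were higher at a p under 0.05, but only MSMO1 had livers that did not overlap. The shares over all genes tested were 1.3% and 0.656%. The list's mean log2 CPM was 2.38, 4.43, 3.27 and 3.64 in tert+/+ livers 1 to 4 and 4.01, 3.75, 5.37 and 5.84 in tert+/- livers 1, 2, 4 and 5. Tert+/- livers 4 and 5 were therefore the highest and tert+/+ liver 1 the lowest, while tert+/- livers 1 and 2 were below tert+/+ liver 2. The size of the difference rested on the heart-marked livers. Their own median ratio was 3.78 on the log2 scale, and without them the median log2 fold change was 0.47, with 22 of 23 genes higher. Among the livers that then remained, only tert+/- liver 4, at 5.37, lay above tert+/+ livers 2 to 4. Tert+/- livers 1 and 2, at 4.01 and 3.75, lay within their range of 3.27 to 4.43. A fit that also left out tert+/- liver 4 was not run.

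Among the enzymes, SQLE (ENSDARG00000079946), the squalene epoxidase of the pathway, had the widest range. It was at 0.467, 11, 0.879 and 3.47 CPM in tert+/+ and at 12.3, 6.61, 68.6 and 187 CPM in tert+/-, a log2 fold change of 4.11 (SE 1.29, edgeR adjusted p = 0.9999) that was 2.51 without the heart-marked livers and 2.89 to 5.48 over single livers left out. MSMO1 (ENSDARG00000055876), a sterol methyl oxidase, was at 27.8, 59, 32.6 and 43.5 CPM in tert+/+ and 75.8, 71.6, 185 and 523 CPM in tert+/-, with a log2 fold change of 2.39 (SE 0.65) that was 1.32 without the heart-marked livers. FDPS, which makes farnesyl diphosphate, ranged from 5.37 to 28.2 CPM in tert+/+ and from 19.6 to 315 CPM in tert+/-, and its log2 fold change was 2.82, or 1.34 without the heart-marked livers. The left-out pair had the same direction. Of the 23 genes, 22 were higher in tert+/- liver 3 than in tert+/+ liver 5, beside 49% of all genes tested. Their median log2 ratio was 1.64, and SQLE had 3.85, although each of those livers is a single library with gut transcripts. In tert-/- livers the median over the same tert+/+ livers was 0.66. Genes of sterol regulation and uptake had 9 higher and 7 lower of 16 and a median of 0.19, or 11 of 16 higher and a median of 0.40 without the heart-marked livers, and those of fatty acid and triglyceride synthesis had 13 higher and 11 lower of 24.

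**Figure D4:**
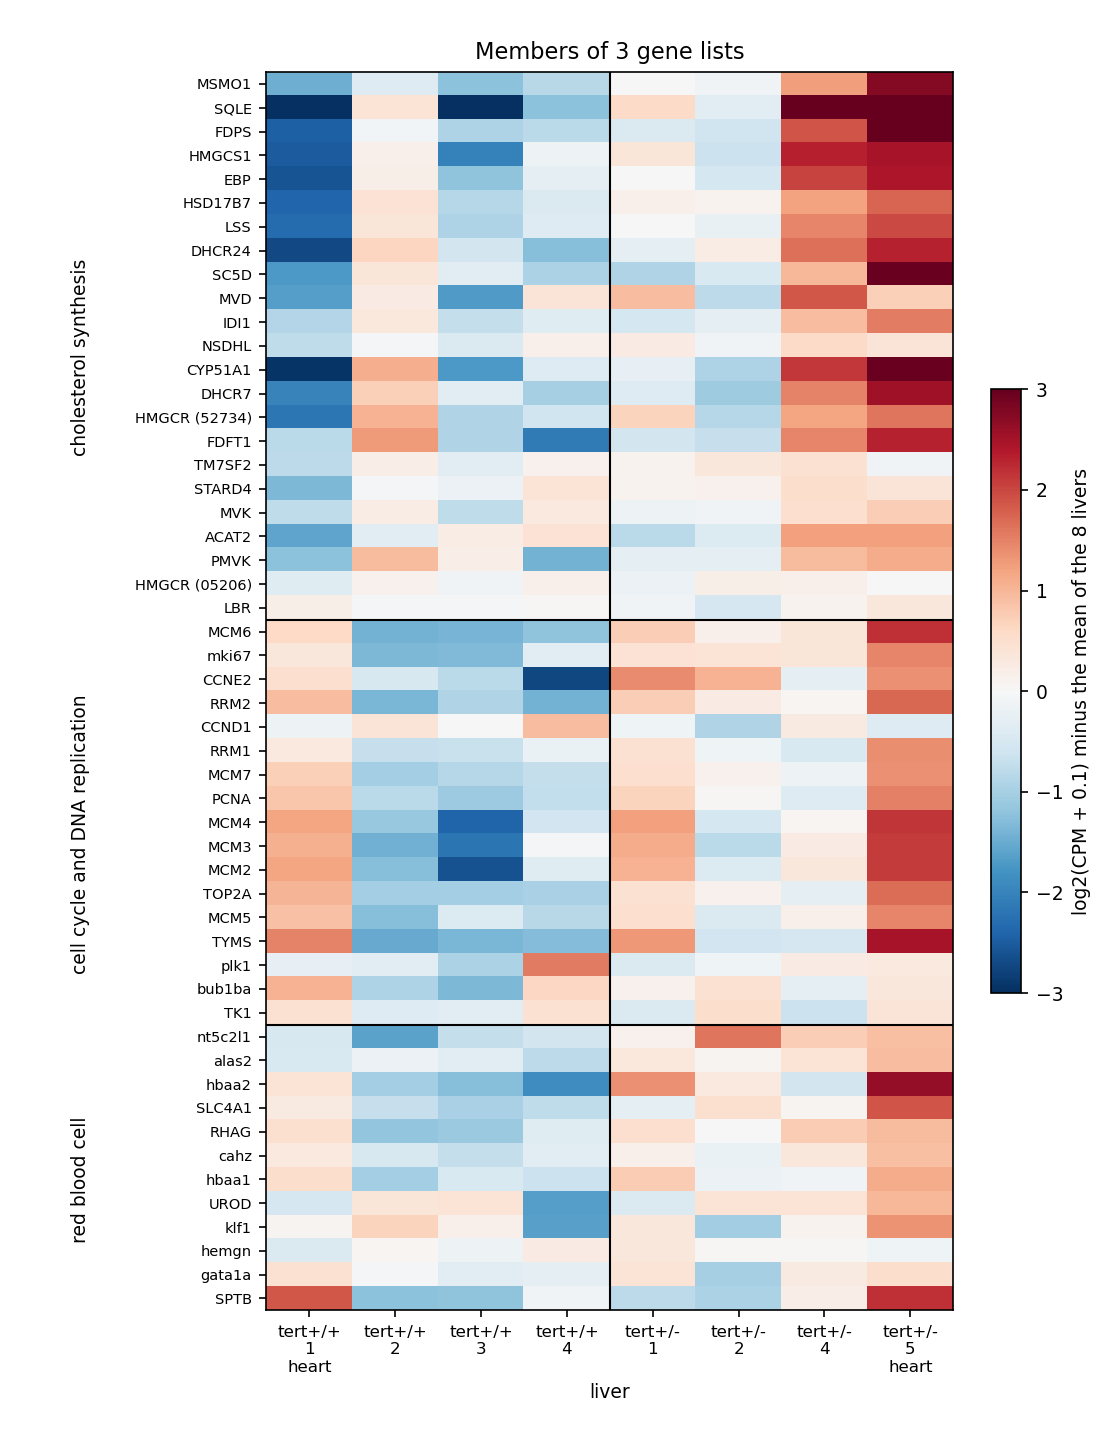
Log2(CPM + 0.1) minus the mean of the 8 livers, as colour, for the tested members of 3 lists (rows) in each liver (columns), with tert+/+ left and tert+/- right of the line and the heart-marked livers named. Cholesterol synthesis is highest in tert+/- livers 4 and 5, and cell cycle genes are high in the heart-marked livers of both genotypes.

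Genes of the cell cycle and DNA replication also stood higher in most cases. Of 17 tested, 14 were higher and 3 lower in tert+/-. The median log2 fold change was 1.08, and 3 genes were higher at an unadjusted p under 0.05, beside 1.3% of all genes tested. The gene mki67, a marker of dividing cells, was at 1.12, 0.276, 0.281 and 0.656 CPM in tert+/+ and 1.2, 1.17, 1.14 and 2.57 CPM in tert+/-, a log2 fold change of 1.43 (SE 0.55). MCM6, a subunit of the replicative helicase, was at 2.57, 0.552, 0.563 and 0.656 CPM in tert+/+ and 2.8, 1.83, 2.17 and 7.86 CPM in tert+/-, so that only tert+/+ liver 1 overlapped tert+/-. Both are low values, and both are highest in the heart-marked liver of each genotype. The median of the list was 1.38 without the heart-marked livers, 2.04 without tert+/+ liver 1 and 0.50 without tert+/- liver 5. The left-out pair went the other way, with 1 of 17 genes higher in tert+/- and a median log2 ratio of -0.83. The list of DNA damage response and repair had 13 higher and 9 lower of 22, with a median of 0.15.

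Markers of other cell types also differed between livers. In a bulk library, more cells of a type and more RNA per cell of that type cannot be told apart. All 12 tested markers of red blood cells stood higher in tert+/- (median log2 fold change 0.70), and 5 of them had an unadjusted p under 0.05. Among these, alas2, the erythroid enzyme of haem synthesis (0.89), and nt5c2l1 (1.73), a nucleotidase gene, had livers that did not overlap. Of all genes tested, 43.2% stood higher, 1.3% were higher at such a p and 0.656% lay above without overlap. HBE1 (ENSDARG00000069734), a globin gene of the 20 described above, was at 16.4, 12.6, 10.5 and 9.66 CPM in tert+/+ and 39.1, 25.1, 33.1 and 85.2 CPM in tert+/-. Globin genes are a family of close copies, so reads may be shared among them. The red blood cell list took 0.0171% to 0.0673% of counts in tert+/+ and 0.0433% to 0.124% in tert+/- livers, and this overlap gave p = 0.143 in the exact two-sided permutation test (adjusted over 14 shares, 0.667). In the left-out pair 4 of the 12 were higher, with a median of -0.27. The part of blood in the other differences was not tested.

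All 24 tested markers of the exocrine pancreas, mostly digestive enzymes, had positive log2 fold changes, with a median of 1.28 and 3 at an unadjusted p under 0.05. Among all genes tested, 43.2% were positive and 1.3% were higher at such a p. They took 0.0156% to 0.098% of counts in tert+/+ and 0.0296% to 0.0967% in tert+/-, with tert+/+ liver 1 the highest of the 8. The heart-marked pair had a median of -0.86, and without these livers 20 of 21 genes were higher with a median of 3.58. In the left-out pair 23 of 24 were higher, with a median of 2.05. Skeletal muscle markers were higher for 13 of 15 genes, with a median of 1.34, and at 0.00614% to 0.079% against 0.0145% to 0.0765% of counts, while in the left-out pair 1 of 15 was higher, with a median of -1.21. Intestine markers, which include apoea, took 0.019% to 0.0325% of counts in tert+/+ and 0.00953% to 0.0302% in tert+/-. Exact permutation p-values for the 14 shares ran from 0.114 to 1, but the smallest p that 70 arrangements allow, 0.0286, would not let a single share pass after adjustment over 14, and the intestine share was in part set by the selection on apoea.

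The mitochondrially encoded genes of the respiratory chain were lower in tert+/- for 13 of 13, at a median of -1.97 on the log2 scale. Of these, 9 had an unadjusted p under 0.05, beside 1.51% of all genes tested that were lower at such a p. The size of this difference rested on tert+/+ liver 4. MT-ND5 (ENSDARG00000063921), a subunit of complex I, was at 3630, 2870, 5650 and 48400 CPM in tert+/+ and 3320, 2780, 3450 and 2290 CPM in tert+/-. Without tert+/+ liver 4 the median of the list was -0.29, and in the left-out pair all 13 were higher in tert+/-, with a median log2 ratio of 1.88. That pair was itself uneven, since these genes took 40.3% of counts in tert+/- liver 3 and 15.3% in tert+/+ liver 5. Of the ribosomal protein genes, which are encoded in the nucleus, 71 of 74 were lower in tert+/-, but by a median of only -0.18, and 0 had an unadjusted p under 0.05.

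**Figure D5:**
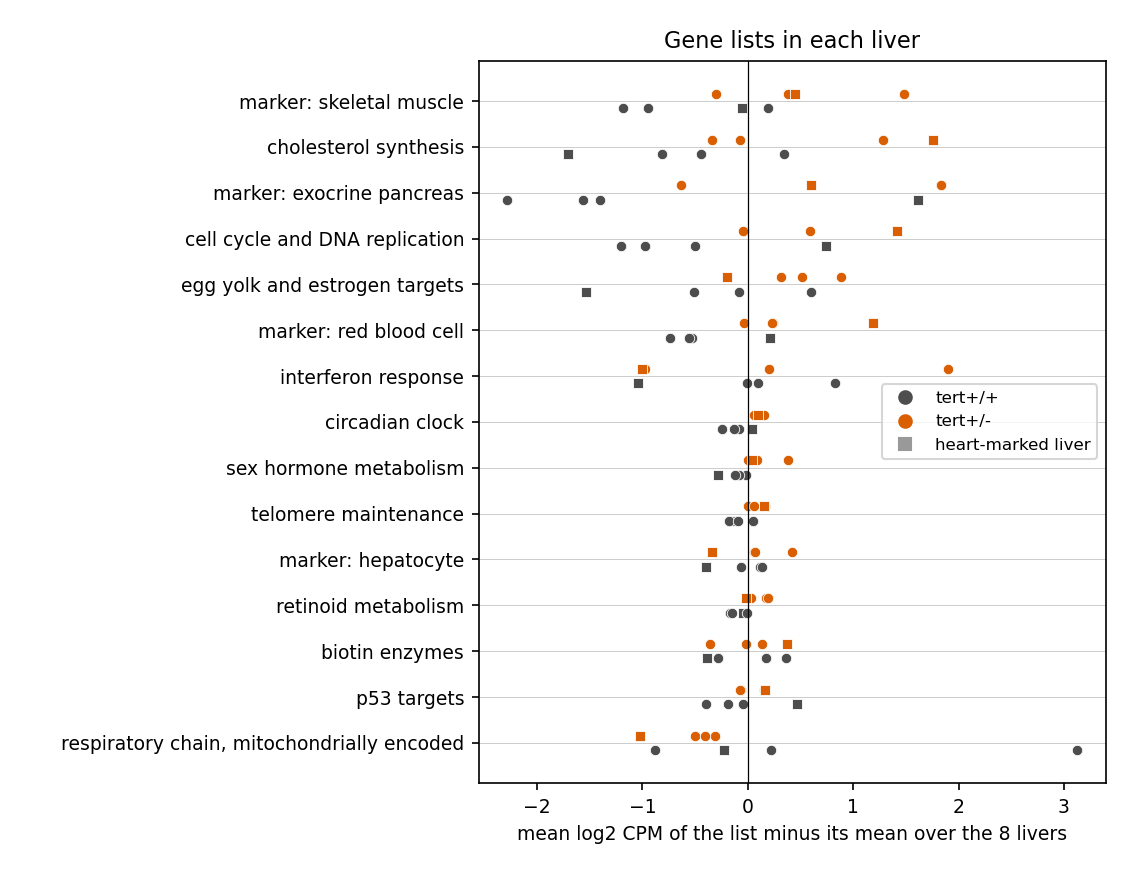
Mean log2 CPM of the tested members of each list in each liver, minus the list's mean over the 8 livers (x axis), 1 point per liver, tert+/+ in grey, tert+/- in orange, squares for the heart-marked livers. The single point at the far right is tert+/+ liver 4 in the mitochondrially encoded list, and only circadian clock and sex hormone metabolism have groups that stay apart by a small gap.

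Circadian clock genes, whose transcripts cycle over the day in the liver, had differences in both directions. Of 32 tested, 21 were higher and 11 lower, with a median of 0.27, against 13 of 32 higher and a median of -0.14 in the left-out pair. At an unadjusted p under 0.05, 4 were higher and 1 lower, beside 1.3% and 1.51% of all genes tested. PER1 (ENSDARG00000056885), a repressor within the clock's feedback loop, was at 6.96, 3.59, 3.76 and 3.19 CPM in tert+/+ and 27, 16.1, 11.7 and 7.08 CPM in tert+/-. Its log2 fold change was 1.82 (SE 0.44), with 2.27 in the 6 livers without heart transcripts and 0.03 in the heart-marked pair. The left-out pair had a log2 ratio of 1.27, and tert-/- livers were at 0.02 over the same tert+/+ livers. A second gene with the symbol PER1 (ENSDARG00000012499) had a log2 fold change of 0.37 with overlap. PER3 (ENSDARG00000010519) stood lower without overlap, at 33.5, 30.8, 70.3 and 36.1 CPM against 26.9, 25.4, 22.9 and 18.9 CPM, a log2 fold change of -0.86 (SE 0.30). The cryptochrome and photolyase gene cry5 had a log2 fold change of 1.68 (SE 0.54) with overlap. Both had the opposite sign in the left-out pair, with log2 ratios of 1.55 for PER3 and -0.65 for cry5. The time of day at which each fish was sampled is not given in the sources used here. The list's mean log2 CPM ran from 2.78 to 3.07 in tert+/+ and from 3.09 to 3.18 in tert+/-.

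Genes of the pathways named around telomerase and ageing showed small medians. In telomere maintenance, 18 of 25 genes were higher and 7 lower, with a median of 0.19, 0 at an unadjusted p under 0.05 and only TERT without overlap. Over all genes tested, 1.3% were higher and 1.51% lower at such a p, and 0.656% lay above without overlap. In the left-out pair 6 of 25 were higher, with a median of -0.36. RUVBL1, a helicase needed to assemble telomerase, had 7.88 to 12.1 CPM in tert+/+ and 10.6 to 15.3 CPM in tert+/-, a log2 fold change of 0.39 (SE 0.22). Targets of p53, the transcription factor that responds to DNA damage, had 11 higher and 13 lower of 24 and a median of -0.03. The lowest p among them was that of sesn3, a sestrin, at 17.5, 22.3, 21.1 and 11.1 CPM in tert+/+ and 9.07, 9.34, 10.7 and 11.8 CPM in tert+/-, a log2 fold change of -0.82 (SE 0.26). Senescence and secreted factors had 6 higher and 6 lower of 12. Interferon response genes were higher for 17 of 21, with a median of 0.36, but without tert+/- liver 4 the median was -0.60, and in the left-out pair 19 of 21 were higher. Mxe, an antiviral GTPase gene, had 71.3 CPM in that liver and 2.57 to 13.8 CPM in the other 7.

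The study asked about retinoids and sex hormones in tert mutants. Its retinoid result in tert+/- fish came from the brain, by gene set and metabolic model analyses. The study also analysed liver, muscle and skin, and its text reports retinoids in the skin of tert-/- fish too. It proposes that ageing affects organs differently. Medians of gene lists in the liver are another measure and come from another tissue than the brain, so they do not test the brain result. In these livers the retinoid list had a median near 0 and the sex hormone list a small positive one. Of 27 retinoid genes, 14 were higher and 13 lower, with a median of 0.04, and 18 were higher, with a median of 0.14, without the heart-marked livers. Their mean log2 CPM ran from 4.10 to 4.26 in tert+/+ and from 4.24 to 4.46 in tert+/-, with a small overlap. The retinoic acid receptor gene rarab was the single one with an unadjusted p under 0.05, at a log2 fold change of -1.0 (SE 0.40). Over all genes tested, 1.51% were lower at such a p. RBP4, the retinol carrier of the blood made by hepatocytes, had 3610, 4190, 7010 and 6350 CPM in tert+/+ and 3630, 4230, 4300 and 2250 CPM in tert+/-, a log2 fold change of -0.55 (SE 0.34) with overlap. Of 24 sex hormone genes, 17 were higher and 7 lower, with a median of 0.22 that was 0.02 without the heart-marked livers. The list's mean log2 CPM ran from 3.65 to 3.91 in tert+/+ and from 3.93 to 4.31 in tert+/-. In the left-out pair 16 of 24 were higher, with a median of 0.45, and the tert-/- median over the same tert+/+ livers was -0.07. ESR2 (ENSDARG00000034181), an estrogen receptor, stood out at 58, 43.5, 58.3 and 73 CPM in tert+/+ and 215, 187, 98.5 and 85.8 CPM in tert+/-, without overlap, a log2 fold change of 1.33 (SE 0.34, edgeR adjusted p = 0.9999). In the left-out pair its log2 ratio was -0.08. Among all genes tested, 0.656% lay above without overlap. A second gene with the symbol ESR2 (ENSDARG00000016454) had a log2 fold change of -0.11 with overlap, and -1.98 in the left-out pair.

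Egg yolk genes, which estrogen induces in the female liver, were low in these males and higher in tert+/- for 5 of 5 tested, with a median of 0.74. In the left-out pair 2 of 5 were higher, with a median of -0.48, and the tert-/- median over the same tert+/+ livers was -0.40. Vtg5, a vitellogenin, was at 8.59, 31.9, 35.9 and 35.8 CPM in tert+/+ and 37.6, 30.9, 75.6 and 49.6 CPM in tert+/-, where tert+/+ liver 1 was low and the rest overlapped. Without tert+/- liver 4 the median of the list was 0.39, and without tert+/+ liver 4 it was 1.24. Among biotin enzymes, 5 were higher and 7 lower of 12, with a median of -0.02. BTD (ENSDARG00000099596), the biotinidase that frees biotin from proteins, was the exception without overlap, at 5.7, 2.64, 3.97 and 2.06 CPM in tert+/+ and 8.4, 9.95, 7.29 and 10.8 CPM in tert+/-. Its log2 fold change was 1.34 (SE 0.34, edgeR adjusted p = 0.9999), and it was 2.66 both in the left-out pair and in tert-/- over the same tert+/+ livers. The tert-/- value shares those tert+/+ livers, and the left-out pair is 1 liver of each genotype. Among all genes tested, 0.656% lay above without overlap.

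The lists of core liver functions had medians within 0.2 of 0 on the log2 scale. Acute phase and complement had 20 higher and 11 lower of 31 (median 0.11), coagulation 14 and 7 of 21 (0.05), apolipoproteins 13 and 9 of 22 (0.07) and hepatocyte markers 17 and 7 of 24 (0.05). Fatty acid oxidation had 10 higher and 16 lower of 26 (-0.03), glucose metabolism 11 and 9 of 20 (0.03), xenobiotic metabolism 14 and 19 of 33 (-0.05), and bile acid synthesis and transport 5 and 9 of 14 (-0.16). Amino acid and urea metabolism had 11 higher and 19 lower of 30, a median of -0.04, yet held prodha among the 4 genes that were higher at an unadjusted p under 0.05. The share over all genes tested was 1.3%. Heat shock proteins were lower for 14 of 17, with a median of -0.19, and higher in the heart-marked pair, with a median log2 ratio of 0.71.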

How the data were processed

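RNA was sequenced from 13 livers, with libraries made by the TruSeq v2 kit, which does not mark strand. The authors deposited a table of raw counts per gene. Build GRCz10 is named in the submitters' processing notes with the tools featureCounts (1.4.6-p4), STAR (2.4.1d) and bcl2fastq (1.8.4), whereas the study's methods name kallisto. A deposited RPKM table was not used. Gene symbols were matched by Ensembl ID to a reference name table for 26269 of 32105 genes, often as the human counterpart's symbol. Counts were filtered with edgeR's filterByExpr, scaled by TMM and tested with edgeR 4.0.16 (quasi-likelihood, Benjamini-Hochberg, threshold 0.05, 4 against 4 livers) in R 4.3.3. DESeq2 1.42.0 and limma 3.58.1 were alternatives, and the scripts were tested on simulated data. Log2 ratios of pairs used a prior count of 2. Shares of counts were compared by exact permutation. Gene lists (41, of which 13 are cell type markers) and members were chosen with earlier results of these data known, so they are a description. Named genes were TERT, the 20 of smallest p whose mean log2 CPM reached 0, since fewer than 10 were called, and the 3 of smallest p in each described list. Described lists were the 6 with the largest absolute median outside the marker lists and those for telomere maintenance, p53 targets, retinoids, sex hormones and biotin. No library pair was a duplicate (chi-square per degree of freedom at least 85.8 over 28 pairs). P-values measure the spread between these livers only. No sequence is shown, since none was given for these genes.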

Additional observations from a re-analysis of the deposited data

Results flagged for a closer look

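In 136 groups of 4 livers, 11 had a liver far from the other 3 by Dixon's criterion, taken on log2 CPM for genes, and chance alone puts about 1 in 20 groups over it. Heart muscle markers took 1.35% of counts in tert+/+ liver 1, where the others had 0.00176% to 0.00377%, and 1.13% in tert+/- liver 5, where the others had 0.00186% to 0.00377%. Skeletal muscle markers took 0.079% in tert+/+ liver 1 against 0.00614% to 0.008% in the others. Endothelial markers took 0.0255% in tert+/- liver 5 against 0.00966% to 0.0121%. Vtg5 was at 8.59 CPM in tert+/+ liver 1 against 31.9 to 35.9 CPM.

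Cell cycle genes were high in the same livers, with MCM6 at 2.57 CPM in tert+/+ liver 1 against 0.552 to 0.656 CPM and mki67 at 2.57 CPM in tert+/- liver 5 against 1.14 to 1.2 CPM. Mitochondrially encoded genes took 54.7% of counts in tert+/+ liver 4 against 8.07% to 14.4%, and ATP6V1C1 had 14.3 CPM in that liver against 6.86 to 7.35 CPM. In tert+/- liver 2, hepatocyte markers took 29.0% of counts against 24.7% to 25.3%, and exocrine pancreas markers took 0.0296% against 0.086% to 0.0967%.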

How the results depend on the processing

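EdgeR called 0 genes in the 8 livers and under each planned edgeR or voom alternative, including an adjusted p under 0.1, except without tert+/+ liver 2, where it called 1 (range over single livers left out 0 to 1). DESeq2 called 14 of 13877 genes, a heart indicator gave 50 of 13877 and leaving out the heart-marked livers 85 of 13655. Leaving out single livers, over 13763 to 13877 genes, gave 81, 9, 6 and 24 without tert+/+ livers 1 to 4. The counts were 42, 12, 4 and 14 without tert+/- livers 1, 2, 4 and 5. These DESeq2 settings other than the first were added after seeing the data, as was the next count. With 3 against 3 livers, after leaving out the heart-marked ones, 668 of the 13877 genes lay above and 600 below without overlap. This is a less demanding criterion than with 4 against 4, which more genes meet under any labelling of the livers. The rise from 91 and 145 genes is therefore not read as a result. Median log2 fold changes of lists moved as follows when single livers were left out: -2.32 to -0.29 for mitochondrially encoded genes, 0.50 to 2.04 for the cell cycle, 0.77 to 2.01 for cholesterol synthesis, 0.072 to 0.31 for the circadian clock, 0.0848 to 0.31 for telomere maintenance and -0.0565 to 0.21 for retinoid metabolism. With all 13 livers in the fit the medians were -0.31 for the cell cycle, 0.16 for the clock and 0.0289 for telomere maintenance, and with 5 against 5 livers and an apoea indicator 0.16 for the clock and 0.0802 for telomere maintenance. Without the heart-marked livers, retinoid metabolism was at 0.14 and sex hormone metabolism at 0.0194. Signs reversed with all 13 livers for mki67 (-0.70), CCNE2 (-0.31), blm (-0.30), RRM2 (-0.91) and bbc3 (-0.24), without tert+/- liver 4 for mxe (-0.24, with 2.45 as the highest value over single livers left out) and ifit8 (-0.43 and 2.75), and without tert+/+ liver 2 for SOCS1 (0.0244, with -2.26 as the lowest). As shares of counts outside the mitochondrially encoded genes, the differences in percentage points reversed for endothelium (-0.00179), stellate cell and fibroblast (-0.0399) and biliary cell (-0.0138). The cause of these changes was not tested. Medians of p53 targets (-0.068 to 0.20), biotin enzymes (-0.056 to 0.14) and interferon response (-0.60 to 0.70) also changed sign over single livers left out. List medians were counted as unmoved, whatever their sign, when they shifted by less than the pooled standard deviation of the list's mean level between livers. The other planned values of named genes and shares kept direction and side of the threshold, apart from the 14 genes called by DESeq2. No paired analysis was possible because the labels give no replicate numbers shared between the genotypes. Genes of low counts, such as TERT at 0.452 to 3.28 CPM, are limited by depth as well as by the spread between livers.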
